A study of Rattus norvegicus with 4 samples.

Results

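The genes described here are 37 that encode enzymes and regulators of cholesterol, fatty acid and sphingolipid synthesis, out of 25399 genes in a single-cell RNA sequencing matrix of rat peripheral nerve tissue. They were chosen by name, and all 37 symbols were present in the gene table. Of these, 23 belong to the sterol branch, 8 to the fatty acid branch and 5 to the sphingolipid branch, and Lpin1, a phosphatidate phosphatase of glycerolipid synthesis, was counted in none. The study took sciatic nerve and dorsal root ganglion from Sprague Dawley rats at 8 weeks of age and at postnatal day 1, which gives 4 groups with 1 library each: adult sciatic nerve, adult dorsal root ganglion, P1 sciatic nerve and P1 dorsal root ganglion. The sex of the animals is given as not determined. The labels also describe a primary culture of Schwann cells in medium with serum, without stating that the cells of these libraries came from it.

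The matrix joins 4 libraries whose barcodes end in 1, 2, 3 or 4, and nothing in the labels or files used here ties those numbers to a tissue or an age. They are therefore called library 1 to library 4, no library was assigned to a group, and no contrast between tissues or ages was made. Every contrast below lies between cell classes of the same library. There is 1 library per group, so no test and no p-value is given, and all intervals are exact 95% intervals that cover counting error only. After filtering, 32777 of 41444 barcodes remained, with 6473 to 9433 cells per library and median depths of 1645.5 to 7554 UMIs (unique molecular identifiers, 1 for each captured transcript). The doublet caller marked 395 barcodes in library 1 but only 3 in library 4 and 0 in libraries 2 and 3, so doublets of libraries 2 to 4 are treated here as not removed. Kept cells of different libraries shared 13 to 29 barcode sequences per pair of libraries.

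A Schwann cell that forms myelin wraps an axon in many layers of its own membrane, and that membrane is rich in cholesterol and in galactolipids. Cholesterol is built from acetyl-CoA through the mevalonate pathway and squalene, under the control of the SREBP transcription factors, which are escorted by SCAP and held back by INSIG proteins when sterol is plentiful. Galactosylceramide and its sulfated form, sulfatide, are the characteristic sphingolipids of myelin, and they carry very long chain fatty acids, many of them hydroxylated. Neurons and satellite glia, the cells that surround neuron bodies in the ganglion, also use these pathways.

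Cell classes were set by counting how many markers of a class each cell had on. Cells of the Schwann lineage with at least 7 of 14 myelin markers on are called myelinating Schwann-like, and the rest other Schwann-lineage-like. The myelinating Schwann-like class held 40, 135, 151 and 639 cells in libraries 1 to 4, and the other Schwann-lineage-like class 213, 601, 388 and 5407. Some cells lay close to the cut in every library, most of them in library 4. In the myelinating class, 9, 17, 21 and 234 cells had exactly 7 markers on. In the other class, 9, 4, 21 and 444 cells were 1 marker short. The median number of markers on was 9, 10, 9 and 8 in the myelinating class and 3, 1, 2 and 3 in the other. The gate alone does not settle whether the myelinating class is a separate type or part of a range. Fibroblast-like cells numbered 6103, 356, 683 and 940. Neuron-like barcodes were plentiful in libraries 2 and 3, with 4728 and 3199. Levels are given as CPM, the UMIs of a gene per 1000000 UMIs of the summed cells of a class in a library.

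Marker levels were checked in the classes, although the gate used these genes. Sox10, a transcription factor of the Schwann lineage, stood at 125, 177, 141 and 166 CPM in myelinating Schwann-like cells of libraries 1 to 4, and at 104, 149, 224 and 161 CPM in other Schwann-lineage-like cells. In fibroblast-like cells Sox10 stood at 0.132, 0.761, 0.454 and 4.64 CPM, from 2 UMIs each in libraries 2 and 3. The 14 myelin markers summed to 52333, 49111, 48236.5 and 27406 CPM in myelinating Schwann-like cells, and to 7551, 2907, 6415.5 and 8459 CPM in other Schwann-lineage-like cells. The summed fibroblast list stood at 2719, 705, 1663 and 4714 CPM in myelinating Schwann-like cells and at 5424, 482, 2480 and 7090 CPM in other Schwann-lineage-like cells, so fibroblast transcripts were present in lineage cells of libraries 1, 3 and 4 above all, and their part in the results was not tested. The satellite glia list went against its name. Fabp7, a defining satellite glia gene, stood at 680 and 289 CPM in other Schwann-lineage-like cells of libraries 2 and 3 but at 0 and 0.0462 CPM in libraries 1 and 4. A subset that had at least 3 satellite glia markers on is therefore called cells rich in satellite glia markers and not satellite glia. The other Schwann-lineage-like class thus held Fabp7 transcripts in 2 libraries and almost none in the others.

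Promoter windows from RefSeq, build GRCr8, covering 250 bases before to 50 bases after the gene start, were found for 30 of the 37 genes, as 31 windows. The 3 sterol genes and 2 sphingolipid genes printed here are ones whose levels are described in detail below. Capitals mark matches to the CCAAT box (CCAAT or its reverse complement) and the GC box (GGGCGG or its reverse complement). Hmgcs1 lies at chr2:53382054-53382353, plus strand; Fdps at chr2:176804767-176805066, minus strand; Msmo1 at chr16:29746863-29747162, plus strand; Fa2h at chr19:56273431-56273730, minus strand; and Ugt8 at chr2:217007118-217007417, minus strand. Each is written on its gene's strand.
Hmgcs1: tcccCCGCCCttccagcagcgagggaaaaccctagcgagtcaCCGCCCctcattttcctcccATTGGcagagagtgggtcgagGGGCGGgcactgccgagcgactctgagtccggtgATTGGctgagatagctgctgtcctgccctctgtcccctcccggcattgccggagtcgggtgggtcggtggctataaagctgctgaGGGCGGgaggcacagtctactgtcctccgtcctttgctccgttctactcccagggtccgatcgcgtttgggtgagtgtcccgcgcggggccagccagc
Fdps: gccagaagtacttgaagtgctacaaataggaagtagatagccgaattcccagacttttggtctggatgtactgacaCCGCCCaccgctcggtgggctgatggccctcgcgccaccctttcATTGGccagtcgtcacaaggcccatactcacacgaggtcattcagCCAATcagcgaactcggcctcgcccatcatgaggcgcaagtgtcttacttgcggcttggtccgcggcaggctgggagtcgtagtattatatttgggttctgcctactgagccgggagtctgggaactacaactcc
Msmo1: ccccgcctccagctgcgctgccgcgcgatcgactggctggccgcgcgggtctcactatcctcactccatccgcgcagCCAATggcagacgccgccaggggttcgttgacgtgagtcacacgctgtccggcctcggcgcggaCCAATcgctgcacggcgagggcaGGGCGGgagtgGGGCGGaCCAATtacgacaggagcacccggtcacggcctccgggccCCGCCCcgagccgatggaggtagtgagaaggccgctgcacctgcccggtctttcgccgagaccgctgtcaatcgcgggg
Fa2h: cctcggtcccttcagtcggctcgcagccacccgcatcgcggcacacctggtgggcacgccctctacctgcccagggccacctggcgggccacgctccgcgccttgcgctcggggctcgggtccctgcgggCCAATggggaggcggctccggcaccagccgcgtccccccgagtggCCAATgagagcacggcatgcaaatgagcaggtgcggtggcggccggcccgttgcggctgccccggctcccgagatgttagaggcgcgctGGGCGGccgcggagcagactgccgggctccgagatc
Ugt8: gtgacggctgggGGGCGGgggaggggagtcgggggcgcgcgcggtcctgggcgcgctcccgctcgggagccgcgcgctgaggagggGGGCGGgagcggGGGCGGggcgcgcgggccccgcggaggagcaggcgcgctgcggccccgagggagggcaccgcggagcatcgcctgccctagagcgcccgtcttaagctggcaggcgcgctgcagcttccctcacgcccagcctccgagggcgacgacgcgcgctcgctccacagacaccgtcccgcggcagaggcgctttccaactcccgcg

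On either strand, a CCAAT box was present in 24 of the 31 windows (77.4%), against 37.5% of all 33469 windows of the same length. A GC box was present in 25 of 31 (80.6%), against 33.1% of all. The sterol regulatory element was searched in 9 forms, and the choice of form changed what was seen. The full form TCACNCCAC was in 0 of 31 windows against 1.12% of all, and a 10-letter form beginning ATCACNC was in 0 against 0.511%. In the other 7 forms the members' share was above that of all windows. TCACNCC was in 7 of 31 (22.6%) against 14.6%, CACNCCAC in 4 (12.9%) against 5.80%, CACCNCAC in 5 (16.1%) against 6.17%, and the full form with 1 mismatch allowed in 13 (41.9%) against 23.7%. TCACNCCA and TCACNNCAC were each in 2 (6.45%), against 3.89% and 3.78%, and ATCACNCC in 1 (3.23%) against 2.42%. These forms overlap one another. A match is a run of letters and not a binding site, and a window without one says nothing about the factor.

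Of the 3 branches, only the 5-gene sphingolipid branch was higher in myelinating Schwann-like than in other Schwann-lineage-like cells in every library. Ugt8, which adds galactose to ceramide, and Fa2h, which hydroxylates the fatty acid, were past 2-fold in all 4 libraries, while 2.85% of all genes were past it in every library where they could be measured. All 5 members of the branch were above 0 on the log2 scale in each library where they could be measured, which means at least 20 UMIs on one side. The like share over all genes was not counted, so this count has no background beside it. Sptlc2 was measured in 2 libraries and Gal3st1 in 3. The median log2 ratio of the branch was 1.97, 1.88, 2.09 and 0.92 in libraries 1 to 4, beside medians over all measured genes of -0.32, -0.06, -0.23 and -0.09. A separate list of 22 other genes of sphingolipid synthesis and breakdown had medians of 0.06, -0.10, 0.15 and 0.04. Those medians rest on 10, 12, 11 and 15 measured genes. Both lists were chosen with earlier results of these data known, and the second mixes synthesis with breakdown genes. The difference is therefore described for the branch members alone, and nothing is concluded about sphingolipid genes at large.

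Ugt8 stood at 408, 706, 622 and 379 CPM in myelinating Schwann-like cells of libraries 1 to 4, and at 29.3, 70.4, 75.6 and 96.2 CPM in other Schwann-lineage-like cells. The 4 values of the first class all lie above the 4 of the second. The log2 ratios were 3.80 (interval 3.001 to 4.66), 3.33 (3.12 to 3.53), 3.04 (2.73 to 3.36) and 1.98 (1.91 to 2.05), so library 4 had the smallest difference and it does not overlap the others. After every cell was thinned to 1000 UMIs, the share of cells with a Ugt8 UMI was 25.6%, 43.7%, 41.7% and 27.2% of myelinating Schwann-like cells, and 2.84%, 6%, 7.75% and 9.06% of other Schwann-lineage-like cells. Fibroblast-like cells, which should lack the transcript, had shares of 0%, 0.282%, 0% and 0.651%, where a count of 0 of 6094 and of 681 cells allows up to 0.0605% and 0.540% by the exact interval. Without thinning, the shares were 67.5%, 83.0%, 81.5% and 81.8% of myelinating Schwann-like cells, 7.51%, 37.4%, 21.6% and 47.9% of other Schwann-lineage-like cells, and 0.0655%, 0.281%, 0.439% and 6.17% of fibroblast-like cells. Median depths were 3033, 3732, 5245 and 9181 UMIs in myelinating Schwann-like cells, 2611, 6783, 3183.5 and 7001 in other Schwann-lineage-like cells, and 7784, 6993, 5688 and 13034 in fibroblast-like cells. Erythroid-like cells of library 4, which should also lack it, had 24.2 CPM of Ugt8, which is 20 UMIs.

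Fa2h stood at 172, 269, 234 and 167 CPM in myelinating Schwann-like cells, and at 43.9, 13.2, 29.5 and 44.7 CPM in other Schwann-lineage-like cells. The classes did not overlap here either. The log2 ratios were 1.97 (1.09 to 2.84), 4.35 (3.94 to 4.78), 2.99 (2.49 to 3.52) and 1.90 (1.796 to 2.01). Library 2 had the largest difference of the 4 and also the lowest level among other Schwann-lineage-like cells. Erythroid-like cells of library 4 had 20.6 CPM of Fa2h.

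Cers2, the ceramide synthase that prefers very long chain fatty acids, was higher by 1.44, 1.88, 1.19 and 0.79 on the log2 scale, with intervals above 0 in all 4 libraries. Its levels were 306, 453, 272 and 177 CPM in myelinating Schwann-like cells, and 112, 123, 119 and 103 CPM in other Schwann-lineage-like cells. The levels in other Schwann-lineage-like cells lie close together, and the levels in myelinating Schwann-like cells vary more. Gal3st1, which sulfates galactosylceramide, was measured in libraries 2 to 4, with log2 ratios of 1.24, 0.94 and 0.92. Sptlc2, a subunit of the first enzyme of the pathway, had few UMIs, with 0.95 (-0.62 to 2.25) in library 2 and 0.41 (0.11 to 0.69) in library 4.

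**Figure D1:**
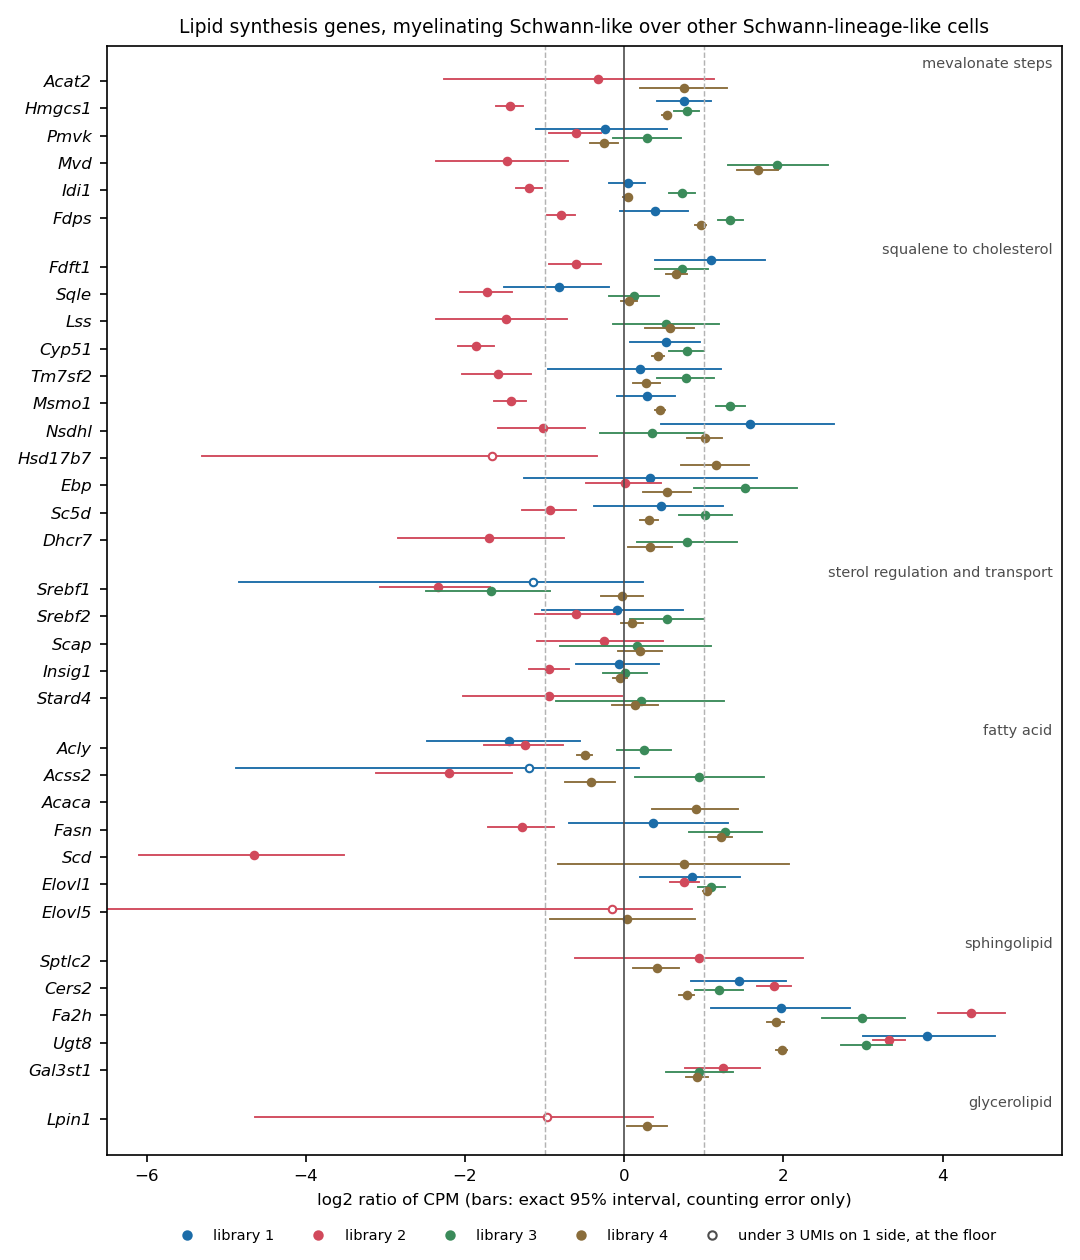
The log2 ratio of CPM in myelinating Schwann-like over other Schwann-lineage-like cells on the x axis, for each member gene on the y axis grouped by role, with 1 point per library and exact 95% intervals for counting error. Dashed lines mark a 2-fold difference, and the bar of Elovl5 in library 2 is cut at the left edge. Open points had under 3 UMIs on 1 side, which was set to 3 UMIs. The sphingolipid genes lie right of 0 in every library where they were measured. Most sterol genes lie left of 0 in library 2 and right of it in libraries 3 and 4.

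The sterol branch did not differ in 1 direction. Its median log2 ratio, myelinating Schwann-like over other Schwann-lineage-like cells, was 0.28 in library 1, -1.10 in library 2, 0.72 in library 3 and 0.37 in library 4. Of 22 sterol genes that could be measured, 20 were higher in some libraries and lower in others. The like share over all genes was not counted, so this number alone does not set the sterol genes apart. Over all branches, 5, 4, 10 and 7 members were at least 2-fold higher in libraries 1 to 4 among 22, 34, 28 and 35 measured, while 5.35%, 9.07%, 4.15% and 3.71% of all measured genes were. At least 2-fold lower were 3, 16, 1 and 0 members, beside 18.7%, 14.1%, 15.7% and 9.14% of all genes. The 16 lower members of library 2 were 12 sterol and 4 fatty acid genes. In these medians and counts a side with under 3 UMIs was set to 3 UMIs, while the ratio of a single gene with 1 or 2 UMIs on a side is given from the UMIs seen.

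Hmgcs1, which makes the precursor of mevalonate, shows the split. It stood at 784, 525, 822 and 415 CPM in myelinating Schwann-like cells of libraries 1 to 4, and at 465, 1421, 477 and 287 CPM in other Schwann-lineage-like cells. The log2 ratios were 0.75 (0.41 to 1.09), -1.44 (-1.61 to -1.27), 0.78 (0.63 to 0.94) and 0.53 (0.47 to 0.59). Library 2 is set apart by the level in other Schwann-lineage-like cells, which was the highest of the 4. Fdps, which makes farnesyl diphosphate, was likewise below 0 in library 2 alone, with log2 ratios of 0.38, -0.79, 1.33 and 0.96, and Idi1, which isomerises isopentenyl diphosphate, with 0.04, -1.19, 0.72 and 0.04. Mvd, the decarboxylase before Idi1, was at -1.48 in library 2, 1.92 (1.30 to 2.56) in library 3 and 1.68 (1.42 to 1.93) in library 4. Pmvk, the second mevalonate kinase, stayed within 1 log2 unit of 0, at -0.24, -0.61, 0.28 and -0.26. Acat2, the thiolase that starts the route, had few UMIs and was at -0.32 (-2.26 to 1.13) in library 2 and 0.76 (0.20 to 1.29) in library 4. Mvk, the first mevalonate kinase, never had enough UMIs to be measured.

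From squalene synthesis on to cholesterol, 10 of 11 genes had an interval below 0 in library 2, beside 17.6% of all measured genes. In library 4, 10 had an interval above 0, beside 19.7%. Msmo1, a sterol demethylation enzyme, stood at 627, 360, 735 and 392 CPM in myelinating Schwann-like cells, and at 516, 969, 292 and 287 CPM in other Schwann-lineage-like cells. Its log2 ratios were 0.28 (-0.09 to 0.64), -1.43 (-1.63 to -1.23), 1.33 (1.15 to 1.52) and 0.45 (0.39 to 0.51). Cyp51, which removes the 14-methyl group of lanosterol, was at 0.52, -1.86, 0.79 and 0.42, the lowest library 2 value among the genes of these steps with at least 3 UMIs in each class. Fdft1, the squalene synthase, was at 1.09, -0.61, 0.72 and 0.65, and Sqle, the squalene epoxidase, at -0.82, -1.72, 0.13 and 0.06. Lss, which closes the rings, was at -1.48, 0.52 and 0.57 in libraries 2 to 4. Among the later steps, Tm7sf2 was at 0.20, -1.58, 0.77 and 0.28, Nsdhl at 1.58, -1.02, 0.35 and 1.01, and Sc5d at 0.46, -0.94, 1.02 and 0.31. Dhcr7, the last reductase, was at -1.70, 0.79 and 0.32 in libraries 2 to 4, and Hsd17b7 at -2.24 (-5.31 to -0.34) in library 2, where it had 2 UMIs in myelinating Schwann-like cells, and at 1.15 (0.72 to 1.56) in library 4. Ebp, a sterol isomerase, was the 1 sterol gene above 0 in all 4 libraries, at 0.33, 0.01, 1.52 and 0.54, and its intervals in libraries 1 and 2 contain 0.

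Of the 5 genes of sterol regulation and transport, 4 had an interval below 0 in library 2, beside 17.6% of all genes. In library 3, 1 had an interval below 0 and 1 above, beside 25.1% and 10.6% of all genes. In libraries 1 and 4, where 3 and 5 were measured, 0 lay below 0, beside 18.9% and 27.8%, and 0 above, beside 7.72% and 19.7%. Srebf1, the SREBP gene tied mainly to fatty acid synthesis, was the 1 sterol-branch gene below 0 in every library, at -1.73 (-4.84 to 0.24) on 2 UMIs, -2.33 (-3.07 to -1.68), -1.68 (-2.49 to -0.93) and -0.02 (-0.29 to 0.23). It stood at 15.7, 32.6, 21.1 and 21.8 CPM in myelinating Schwann-like cells, and at 52.1, 164, 67.3 and 22.2 CPM in other Schwann-lineage-like cells. Library 4 shows no difference by its interval. Srebf2, the SREBP gene tied mainly to cholesterol synthesis, was at -0.09, -0.60, 0.54 (0.07 to 1.01) and 0.10. Insig1, which retains SREBP in the endoplasmic reticulum, was at -0.07, -0.94, 0.01 and -0.05, Scap, the SREBP escort, at -0.26, 0.16 and 0.20 in libraries 2 to 4, and Stard4, a sterol carrier, at -0.94, 0.22 and 0.14.

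Several measures moved with the library 2 result. Its myelinating Schwann-like cells had a median of 8.58% mitochondrial UMIs and 3732 UMIs per cell, against 14.2% and 6783 in other Schwann-lineage-like cells. Fabp7, the satellite glia gene, stood at 680 CPM in the second class, and the summed satellite glia list at 305 CPM in myelinating Schwann-like cells, against 1657 in other Schwann-lineage-like cells. The list was also lower in the myelinating class of libraries 1, 3 and 4, at 470, 351 and 909 CPM against 1302, 1543 and 1859, where the sterol median was above 0. Among cells with at most 10% mitochondrial UMIs, 93 against 88, the library 2 sterol median was -0.52, and among cells without a Fabp7 UMI, 128 against 231, it was also -0.52. At least 2-fold lower were then 3 of 15 and 2 of 20 sterol genes, beside 18.0% and 17.9% of all genes in those cells, while it was 12 of 22 over all cells. Over all genes the medians were -0.25 and -0.24 in those 2 sets of cells. The second set was chosen after values were seen. It also selects by depth, since a cell with fewer UMIs is more likely to have none of Fabp7. The sphingolipid median of library 2 was 2.42 and 2.52 in those cells. Leaving the cells rich in satellite glia markers out of the second class gave a sterol median of -1.05. The part that cell makeup, depth or RNA quality play in the difference was not tested.

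In the fatty acid branch the median log2 ratio, myelinating Schwann-like over other Schwann-lineage-like cells, was -0.42, -1.26, 1.02 and 0.75. Elovl1, which elongates very long chain fatty acids, was higher in all 4 libraries, at 243, 504, 822 and 609 CPM in myelinating Schwann-like cells, and at 135, 299, 385 and 296 CPM in other Schwann-lineage-like cells. The log2 ratios were 0.85 (0.20 to 1.46), 0.75 (0.57 to 0.93), 1.09 (0.93 to 1.26) and 1.04 (0.99 to 1.09), close to one another. Fasn, the fatty acid synthase, was at 0.36 (-0.69 to 1.30), -1.28 (-1.71 to -0.89), 1.26 (0.81 to 1.73) and 1.21 (1.07 to 1.35). Acly, which makes cytosolic acetyl-CoA from citrate, was at -1.44 (-2.48 to -0.56), -1.24, 0.25 and -0.50, so it did not go with Fasn in library 4. Acss2, which makes acetyl-CoA from acetate, was at -1.78 (-4.88 to 0.19) on 2 UMIs, -2.20, 0.94 and -0.42. Scd, a stearoyl-CoA desaturase, stood at 10.3 CPM in myelinating Schwann-like cells of library 2, against 259 CPM in other Schwann-lineage-like cells, a log2 ratio of -4.65 (-6.10 to -3.53). It was at or under 10.6 CPM in both classes of the other 3 libraries. Acaca, the carboxylase that commits carbon to fatty acids, was measured in library 4 alone, at 0.90, and the elongase Elovl5 at -1.74 (-7.09 to 0.85) on 1 UMI in library 2 and 0.04 in library 4, where its interval also contains 0. Elovl6 had at most 4 UMIs in any of these classes and was never measured. Lpin1 was at -1.56 (-4.64 to 0.36) on 2 UMIs in library 2 and 0.29 (0.03 to 0.54) in library 4.

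Grouped by how many of the 14 myelin markers a lineage cell had on, from 0 to 2 up to 9 to 14, the sphingolipid branch summed to 193, 209, 315 and 995 CPM in library 1, where the 7 to 8 step held under 20 cells. It summed to 262, 290, 448, 725 and 1459 CPM in library 3 and to 283, 294, 342, 480 and 1182 CPM in library 4. Each step was higher than the one before, with the greatest increase at 9 to 14 markers. The intervals of the lowest 2 steps overlap in these 3 libraries. In library 2 the 3 steps with at least 20 cells were at 243 CPM for 0 to 2 markers, 1282 for 7 to 8 and 1580 for 9 to 14. The sterol branch did not go up at each step in any library. It stood at 4285, 4856, 4406 and 5838 CPM in library 1, at 3668, 2035, 1545, 2438 and 6211 CPM in library 3 and at 2018, 2278, 2430, 2213 and 3502 CPM in library 4, highest at 9 to 14 markers in all 3. In library 2 it went the other way, at 8269, 4515 and 3228 CPM. The fatty acid branch followed the markers in libraries 3 and 4, at 507, 678, 865, 934 and 1221 CPM and at 520, 554, 609, 752 and 970 CPM. It did not in library 1, at 491, 434, 694 and 504 CPM, or in library 2, at 1047, 561 and 728 CPM. Median depth went along with the markers, from 2847 UMIs at 0 to 2 markers to 5696 at 9 to 14 in library 3, and from 6830.5 to 10916.5 in library 4; its part was not tested.

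**Figure D2:**
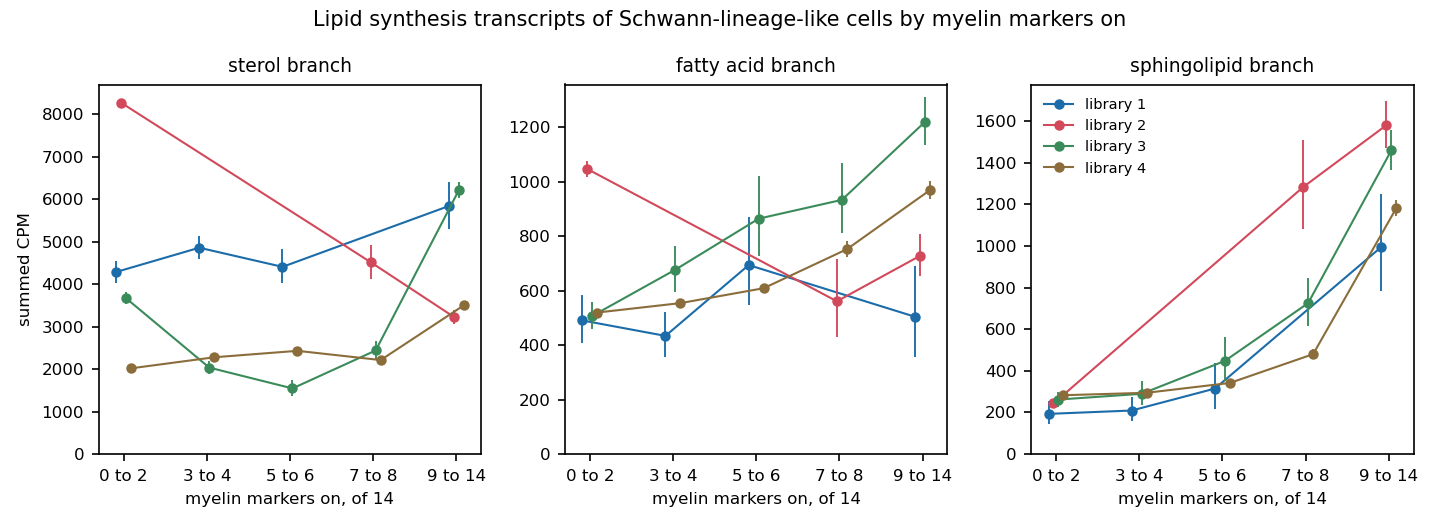
Summed CPM of the genes of each branch (y axis, 1 panel per branch) in Schwann-lineage-like cells grouped by the number of 14 myelin markers on (x axis), with 1 line per library and exact 95% Poisson intervals; steps with under 20 cells are left out. Sphingolipid transcripts are highest at 9 to 14 markers in all 4 libraries, and sterol transcripts of library 2 are highest at 0 to 2 markers, at 8269 CPM.

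Against fibroblast-like cells, Schwann-lineage-like cells as a whole had higher levels of all 3 branches in every library. The sterol medians were 1.88, 2.72, 1.98 and 0.97 on the log2 scale in libraries 1 to 4, the fatty acid medians 1.17, 2.44, 1.65 and 1.03, and the sphingolipid medians 5.82, 5.09, 7.05 and 4.46. The sphingolipid medians of libraries 2 and 3 are those of Fa2h and Gal3st1 set against 3 UMIs, while fibroblast-like cells had 1 and 2 UMIs. From the UMIs seen, these genes were at 6.67 (4.18 to 11.98) and 7.64 (5.77 to 10.69). Over all measured genes the medians were 0.41, 0.02, 0.06 and 0.07. Members at least 2-fold higher numbered 26 of 32, 29 of 34, 24 of 32 and 19 of 35, beside 28.3%, 15.5%, 12.5% and 15.9% of all genes. No member was 2-fold lower in any library, against 13.4%, 14.7%, 17.6% and 16.7% of all genes. The classes were of unequal depth: lineage cells had medians of 2689, 5947.5, 3659 and 7189 UMIs, and fibroblast-like cells 7784, 6993, 5688 and 13034. Mitochondrial shares were 9.81%, 13.4%, 9.63% and 11.3% in lineage cells and 3.64%, 4.73%, 5.70% and 6.33% in fibroblast-like cells. The part of either was not tested.

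The sphingolipid medians of this contrast rest on 3 genes that were nearly absent from fibroblast-like cells. The separate list of other sphingolipid genes had medians of 0.34, 0.04, 0.32 and 0.37 in libraries 1 to 4. Ugt8 stood at 94.3, 134, 290.0 and 133 CPM in Schwann-lineage-like cells, while fibroblast-like cells had 0.0754, 0.381, 0.681 and 5.01 CPM, which is 4, 1, 3 and 68 UMIs. Fa2h stood at 66.0, 38.8, 110 and 60.6 CPM in lineage cells, against 0.226, 0.381, 0 and 1.92 CPM. In library 3, where fibroblast-like cells had 0 UMIs of Fa2h, it was at least 161-fold higher, taken against 3 UMIs. Gal3st1 stood at 25.6, 40.3, 90.5 and 50.3 CPM in lineage cells, against 0.452, 0, 0.454 and 2.28 CPM, and was at least 35.3-fold higher in library 2. Cers2, which many cell types use, was higher by 0.71, 0.62, 0.89 and 0.61, under 2-fold in each, and Sptlc2 was at 1.09, 0.24, 0.02 and 0.02 with intervals that contain 0.

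In the sterol branch, 11 of 22 measured genes were past 2-fold in every library where they could be measured, beside 10.8% of all genes. Hmgcs1 stood at 520, 1331, 613 and 304 CPM in Schwann-lineage-like cells, while fibroblast-like cells had 94.9, 119.5, 90.6 and 129.8 CPM. Cyp51 was 4.58-, 16.1-, 5.39- and 2.20-fold higher and Msmo1 6.98-, 7.17-, 6.60- and 3.58-fold higher. Library 4 had the smallest ratio for each of these 3 genes. Of the regulators, Srebf2 was at 2.33, 1.96, 1.74 and 0.85 on the log2 scale, Srebf1 at 1.44, 2.44, 1.63 and 0.59, and Insig1 at 1.04, 2.17, 1.78 and 1.05. Scap was not higher: it was at -0.39, 0.12, -0.57 and -0.73, and its intervals in libraries 3 and 4 lie below 0. Ebp, at -0.12, 0.79, 0.80 and -0.27, and Hsd17b7, at -0.99 (-4.05 to 0.87) on 2 UMIs, 1.12, 1.12 and 0.16, also differed in sign between libraries.

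Among fatty acid genes, Acss2 was at 1.82, 2.67, 1.65 and 1.51, Fasn at 1.27, 2.74, 1.64 and 0.50, and Elovl1 at 0.70, 1.58, 2.11 and 1.498. Acly, with 1.07, 0.59, 0.90 and 1.21, varied least. Scd was far apart in library 2, at 234 CPM in Schwann-lineage-like cells, against 0.761 CPM, or 2 UMIs, in fibroblast-like cells, with an interval of 6.41 to 11.31 on the log2 scale. It was past 2-fold higher in all 3 libraries where it could be measured, with a lowest log2 ratio of 1.03 and a median of 3.75. Elovl5 was at least 4.66-fold higher in library 2, where fibroblast-like cells had 0 UMIs, and at -0.39 (-0.96 to 0.21) in library 4. Acaca was measured in library 4 alone, at 0.91. Lpin1 was higher in all 4 libraries, at 18.9, 9.44, 10.1 and 20.1 CPM against 0.584, 0.761, 0.681 and 2.95 CPM.

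**Figure D3:**
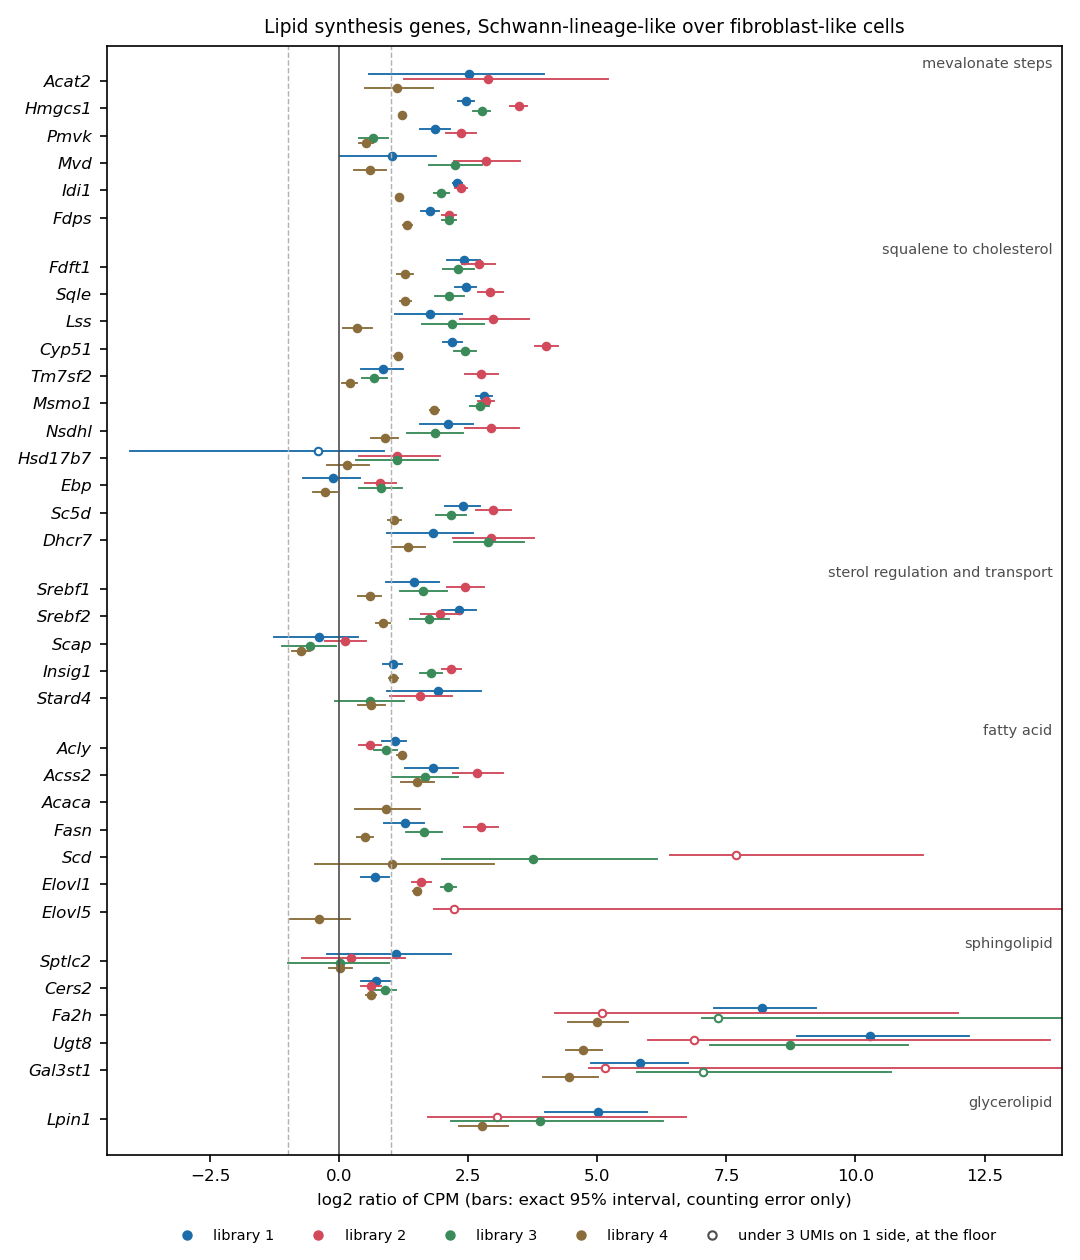
The log2 ratio of CPM in Schwann-lineage-like over fibroblast-like cells on the x axis for each member gene on the y axis, with 1 point per library and exact 95% intervals. Open points had under 3 UMIs on 1 side and were set against 3 UMIs, and bars that reach the right edge have no upper bound. Nearly all points lie right of 0, and Scap is left of 0 in libraries 1, 3 and 4.

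The cells rich in satellite glia markers, 48, 226, 104 and 1609 in number, are a subset of the other Schwann-lineage-like class. Against fibroblast-like cells their sterol medians were 2.21, 2.80, 1.85 and 0.71 and their fatty acid medians 1.03, 2.94, 1.40 and 1.04. Members at least 2-fold higher numbered 19 of 24, 28 of 32, 19 of 27 and 12 of 34, beside 33.3%, 14.5%, 16.3% and 14.7% of all genes. None was 2-fold lower, beside 10.7%, 18.4%, 11.8% and 18.6%. Hmgcs1 stood at 593, 1631, 853 and 269 CPM in these cells, beside the fibroblast-like levels given above. Cyp51 stood at 363, 1235, 388 and 214 CPM in them, while fibroblast-like cells had 73.0, 61.3, 58.6 and 107 CPM. Library 2 had the highest levels of both. The sphingolipid medians, 3.55, 4.04, 3.56 and 4.14, rest on 2, 4, 2 and 5 genes. In library 2, fibroblast-like cells had 1 UMI of Fa2h and of Ugt8 and 0 of Gal3st1, each set to 3 UMIs.

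Across classes that do not share cells, the summed sterol level was highest in a Schwann-lineage class in every library. It stood at 5305, 3476, 5236 and 2850.5 CPM in myelinating Schwann-like cells and at 4546, 8194, 2941 and 2240 CPM in other Schwann-lineage-like cells. Neuron-like cells stood at 3857 and 3674 CPM in libraries 2 and 3, above the myelinating class in library 2 and above the other lineage class in library 3. The cells rich in satellite glia markers stood at 5925, 9002, 4065 and 2117 CPM, and fibroblast-like cells at 1144, 1209, 942 and 1065 CPM. Summed sphingolipid levels were 917, 1523, 1269 and 827 CPM in myelinating Schwann-like cells and 221, 247, 293 and 303 CPM in other Schwann-lineage-like cells. Neuron-like cells stood at 56.2 and 36.9 CPM, below fibroblast-like cells at 107 and 104 CPM in those libraries.

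Member by member, the myelinating class was the highest of the ranked classes for 3 of 4, 4 of 5, 4 of 4 and 4 of 5 sphingolipid genes in libraries 1 to 4, with the interval apart from the next class each time. Sptlc2 was the exception. It was highest in endothelial-like cells in libraries 1, 2 and 4, at 28.9, 14.3 and 32.9 CPM, with the interval apart in library 1 alone. For sterol genes the myelinating class was highest in 6 of 12, 1 of 22, 14 of 20 and 16 of 22, with the interval apart from the next class in 2, 0, 6 and 11 of them. The other lineage class was highest for 19 of 22 in library 2, with the interval apart in 14. The share of all genes that were highest in each class was not counted, so these member counts have no background beside them. Acly was highest in neuron-like cells in libraries 2 and 3.

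**Figure D4:**
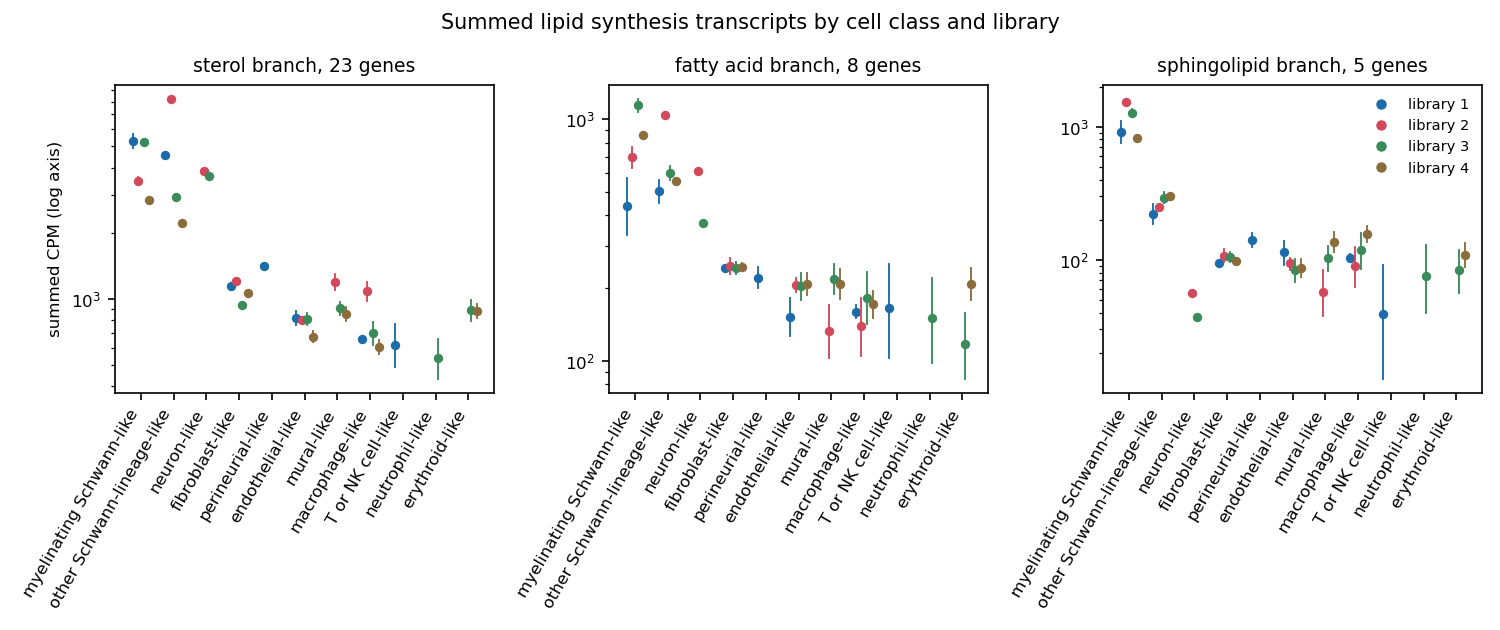
Summed CPM of each branch on a log y axis by cell class on the x axis, with 1 point per library and exact 95% Poisson intervals, for classes with at least 20 cells in a library. The 4 myelinating Schwann-like points are the highest in the sphingolipid panel, at 827 to 1523 CPM.

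Neuron-like cells could be set against Schwann-lineage-like cells in libraries 2 and 3, a contrast added after levels were seen. The sphingolipid branch was far lower in neuron-like cells, with medians of -4.25 and -5.48, except Sptlc2, at -1.72 in library 2 and 0.48 (-0.25 to 1.33) in library 3. The sterol medians were -0.82 and -0.04 and the fatty acid medians -0.96 and -0.30, beside 0.26 and -0.05 over all genes. At least 2-fold lower were 17 and 9 of 35 members, beside 21.8% and 27.2% of all genes, and at least 2-fold higher 1 and 0 members, beside 30.0% and 21.8%. Neuron-like barcodes had median depths of 1118.5 and 7948 UMIs, against 5947.5 and 3659 in lineage cells. Restricted to the 697 and 1677 neuron-like barcodes with at least 5000 UMIs, the sterol medians were -0.81 and -0.04.

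Ugt8 stood at 4.75 and 2.39 CPM in neuron-like cells, against 134 and 290 CPM in Schwann-lineage-like cells, and Fa2h at 0.875 and 0.304 CPM against 38.8 and 110 CPM. Cers2 was at -1.74 and -2.99 on the log2 scale. Elovl1 stood at 35.2 and 25.0 CPM in neuron-like cells, against 319 and 557 CPM in lineage cells, with log2 ratios of -3.18 and -4.47, the lowest of the 7 fatty acid genes measured. Acly was the 1 gene at least 2-fold higher, at 363 and 198 CPM in neuron-like cells against 142 and 140 CPM, or 1.36 and 0.51 on the log2 scale, past 2-fold in library 2 alone. Sterol genes were uneven. Msmo1 was at -1.94 and -2.30, Insig1 at -1.91 and -1.20 and Srebf1 at -2.93 and -2.81, while Pmvk, Mvd and Fdps were near 0 in library 2, at -0.05, -0.18 and -0.0041, and at 0.83, 0.74 and 0.61 in library 3.

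**Figure D5:**
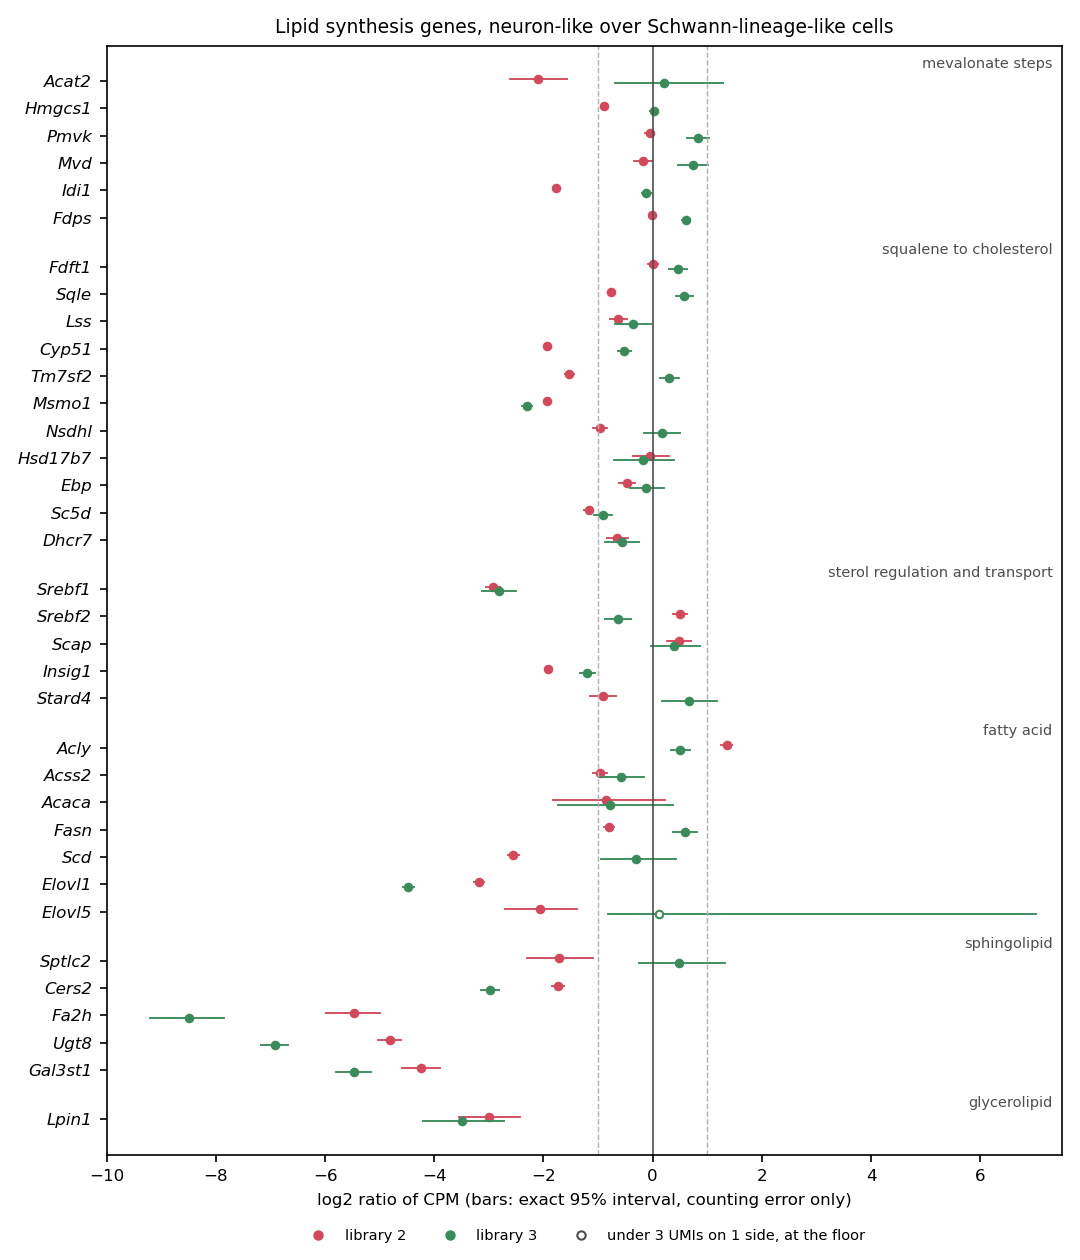
The log2 ratio of CPM in neuron-like over Schwann-lineage-like cells on the x axis for each member gene on the y axis, in libraries 2 and 3, with exact 95% intervals. The sphingolipid genes Fa2h, Ugt8 and Gal3st1 lie farthest left, below -4 in both libraries, and Acly is right of 0 in both.

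Dividing cells of the other Schwann-lineage-like class, 40 in library 3 and 851 in library 4, were set against nondividing cells of the class, in a contrast that was also added after levels were seen. The member medians were -0.10 and -0.17, beside -0.06 and -0.05 over all genes. At least 2-fold higher were 1 of 27 and 0 of 34 members, beside 5.27% and 4.96% of all genes, and at least 2-fold lower 1 and 0, beside 5.3% and 3.11%. By their intervals, 20 of 34 members lay below 0 in library 4 and 3 above, beside 23.3% and 21.4% of all genes. In library 3, 2 of 27 lay below 0 and 2 above, beside 6.77% and 7.92%. Ebp was at 1.39 (0.15 to 2.51) and 0.73 (0.44 to 1.01), Tm7sf2 at -1.49 (-2.83 to -0.40) and -0.44 (-0.62 to -0.26), and Elovl1 at -0.61 and -0.46.

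Other genes of these pathways were looked up in 5 further lists, and 77 of 78 symbols were found. Between myelinating Schwann-like and other Schwann-lineage-like cells, at most 2 genes per list were at least 2-fold higher in any library. Slc25a1, the mitochondrial citrate carrier that feeds fatty acid synthesis, was the 1 gene past 2-fold higher in every library where it was measured, at 1.46, 1.53 and 1.46 in libraries 2 to 4. Of the list of sterol export and storage, 2 of 4, 3 of 8, 2 of 4 and 2 of 8 measured genes were at least 2-fold lower. Over all genes the shares were 18.7%, 14.1%, 15.7% and 9.14%. Other lists also had lower genes in library 2. These were 5 of 12 of other fatty acid synthesis and 3 of 7 of other sterol synthesis and uptake. The other sphingolipid and glycerolipid lists had 1 of 12 and 3 of 16. Apoe, the lipid carrier that glia secrete, stood at 149, 3133, 253 and 65.1 CPM in myelinating Schwann-like cells, against 9957, 70604, 10924 and 142 CPM in other Schwann-lineage-like cells, with log2 ratios of -6.06, -4.49, -5.43 and -1.13. Its median over libraries, -4.96, was the lowest among the listed genes. Ch25h, which makes an oxysterol, was at -3.46 (-8.78 to -0.95) and -2.58 (-5.65 to -0.67) in libraries 2 and 4, on 1 and 2 UMIs in myelinating Schwann-like cells.

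Against fibroblast-like cells, Schwann-lineage-like cells had more of Scd2, a fatty acid desaturase, at log2 ratios of 3.04, 4.36, 2.35 and 1.09, and of Elovl2, an elongase of polyunsaturated fatty acids, at 3.70, 6.52, 4.40 and 3.01. Fads2, a desaturase of polyunsaturated fatty acids, was past 2-fold in both libraries where it was measured, and Gpam, which starts glycerolipid synthesis, Asah1, a ceramidase, Npc1, which moves cholesterol out of lysosomes, and Abca1, a cholesterol exporter, in all 4, with medians of 2.49, 2.55, 1.91, 1.66 and 2.01. Fibroblast-like cells of library 2 had 0 UMIs of Fads2, set to 3 UMIs. Nr1h3, the oxysterol receptor LXR alpha, was lower, at -1.53, -2.48, -4.03 (-9.37 to -1.45) and -2.75, where library 3 had 1 UMI in lineage cells. In neuron-like cells, Elovl4, an elongase of very long chain fatty acids, was higher than in Schwann-lineage-like cells at 3.47 and 2.49, and so was Ugcg, which makes glucosylceramide and not galactosylceramide, at 2.58 and 1.52. Far2, a fatty acyl-CoA reductase, was also higher in neuron-like cells, with a median of 2.48, where library 2 had 0 UMIs in lineage cells, set to 3 UMIs. Past 2-fold lower in neuron-like cells in both libraries were Fads2, Elovl2, Fads1, Gpam, Sgms1, Asah1, Npc1, Npc2, Apoe and Soat1, with medians from -3.99 for Apoe to -1.58 for Asah1. Cells rich in satellite glia markers had more Elovl2, Scd2, Fads1, Gpam, Asah1, Npc1 and Abca1 than fibroblast-like cells, with medians of 6.09, 2.74, 2.56, 2.91, 1.88, 1.497 and 2.02, and less Insig2, at -1.64.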

How the data were processed

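The authors deposited UMI counts as 1 matrix of 25399 genes, made with Cell Ranger 3.1.0, per the file headers. CASAVA 1.8, Seurat and the build Rnor 6.0 also appear in the submitters' processing notes, without roles. The barcode suffix gave 4 libraries, and 0 per-sample columns were left unused.

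Filters asked for 500 or more genes detected and mitochondrial UMIs of 20% or less, and Scrublet calls (scanpy 1.11.5) were removed. A marker was on in a cell if its level reached 0.1 of the mean of the highest 0.5% of cells. A class needed at least 3 markers on, with the next class at no more than 0.5 of its share, and classes covered 78.1% to 89.5% of kept cells. UMIs were summed per class and library. Log2 ratios of CPM, with each side set to 3 UMIs where it had fewer, were taken where one side had at least 20 UMIs and each at least 20 cells. A value whose side of 0 was set by the floor alone was left out.

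The members, lists and markers were chosen with earlier results of these data known. The gate thresholds were set after the files were seen and after other gates had been tried. The contrasts of neuron-like and dividing cells, the rule on floor-set values, the rule that picks out opposite branch medians (beyond 0.5 on both sides) and 5 alternatives were chosen after values were seen. Of the forms of the sterol element, those after the first were tried once the first had found none, and all 9 are given. Genes named outside the members were up to 3 per list and direction, past 2-fold in every library measured; values of 3 genes are not reported here. On simulated data for the myelinating contrast, all 4-fold genes were called (100% of 97 to 100 genes per library), 2-fold genes in 48.0% to 55.6% and unchanged genes in 0.471% to 1.34%. Both simulated sides were Poisson draws from 1 profile pooled over the 2 classes. These rates therefore cover counting error only and not differences between cells or in gating. Calculations used Python 3.11.15 with scipy 1.17.1, numpy 2.4.6 and pandas 2.3.3, and plots matplotlib 3.10.9.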

Additional observations from a re-analysis of the deposited data

Results flagged for a closer look

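In the contrast of myelinating Schwann-like with other Schwann-lineage-like cells, the sterol branch of library 2 had a median log2 ratio of -1.10, opposite in sign to that of library 3, at 0.72. The fatty acid branch of library 2 was likewise at -1.26, against 1.02 in library 3. The difference between libraries was not tested, as there is 1 library per group and none is tied to a label. The sphingolipid branch of the same cells, at 1.88 in library 2 and 2.09 in library 3, did not split this way.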

How the results depend on the processing

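No paired analysis was possible because each group has 1 library and no suffix is tied to a label. Counting error is the only error covered. The share of all genes past 2-fold by their median over libraries was not counted under any setting. The counts of members below therefore have no background beside them. Library 1 has 40 myelinating Schwann-like cells, and 0, 0 and 3 doublets were removed in libraries 2 to 4. Over all settings tried, 443 branch medians and counts stayed within the medians of their counting interval bounds, or within 1.5 times the count, and 32 moved; of single-gene values 2971 kept, 270 moved and 24 changed sign.

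Myelinating Schwann-like against other Schwann-lineage-like cells: the count of members at least 2-fold higher by their median over libraries, 4, was 7 at 10% mitochondrial UMIs, 9 with 1 more marker, 7 without cells at or 1 below the marker cut, and 4 to 8 leaving out 1 library (8 without library 2). The count lower, 2, was 1 at 5 UMIs and 1 to 5 leaving out 1 library (1 without library 2, 4 without library 3, 5 without library 4). Leaving out 1 library gave fatty acid medians of -0.42 to 0.75, sterol 0.28 to 0.37 and sphingolipid 1.88 to 1.97. Nsdhl (0.68) turned to -0.0040 at 100 UMIs and -0.12 thinned. Dhcr7 (0.32) turned to -0.69 at 100 UMIs, -0.42 thinned and -0.0074 with 1 marker fewer, and lay between -0.69 and 0.56 leaving out 1 library (-0.69 without library 3, -0.46 without library 4). Sqle (-0.38) turned to 0.11 with 1 more marker and 0.060 without library 1 or 2, and Scd (-1.95) lay between -4.65 and 0.75 (without library 2) leaving out 1 library.

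Schwann-lineage-like against fibroblast-like cells: the sphingolipid median, 5.45, was 3.33 thinned. Elovl5 (0.92) turned to -0.23 at 10% mitochondrial UMIs, -0.39 at 5 UMIs, and was -0.39 without library 2 and 2.22 (set against 3 UMIs) without library 4, and Hsd17b7 (0.64) to -0.13 at 100 UMIs. With floor-set values kept, the library 1 fatty acid median was 1.44 over 6 genes, beside 0.67 over all genes, in place of 1.17 over 4 beside 0.41. Cells rich in satellite glia markers against fibroblast-like cells: the sphingolipid median, 3.80, was 1.88 at 10% mitochondrial UMIs, 2.44 with a floor of 1 UMI, 4.80 at 5 UMIs, 1.93 at 100 UMIs and 0.99 thinned, and the sterol median, 2.03, was 2.68 with 1 more marker.

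Neuron-like against Schwann-lineage-like cells: the sterol median, -0.43, was -0.18 thinned and -0.82 to -0.044 leaving out 1 library; the sphingolipid median, -4.86, was -4.49 thinned, -4.20 as a mean per cell and -5.48 to -4.25 leaving out 1 library. The count higher, 0, was 1 under median-of-ratios scaling and 0 to 1 leaving out 1 library. Acat2 (-0.95) turned to 0.21 at 100 UMIs, and Ebp (-0.29) to 0.13 as a mean per cell. Without library 3 and without library 2, Acat2 was at -2.10 and 0.21, Hmgcs1 at -0.88 and 0.024, Tm7sf2 at -1.52 and 0.31, Nsdhl at -0.97 and 0.16, Pmvk at -0.054 and 0.83, Mvd at -0.18 and 0.74, and Fdps at -0.0041 and 0.61. Dividing against nondividing cells: the count higher, 1, was 0 at 10% mitochondrial UMIs, at 100 UMIs, with 1 more or 1 fewer marker and 0 to 1 leaving out 1 library; the count lower, 0, was 1 with a floor of 1 UMI, under median-of-ratios scaling and 0 to 1 leaving out 1 library. The cause of these moves was not tested.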
